A study of Mus musculus with 18 samples.

Results

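The genes of the respiratory chain and the ATP synthase were followed in 4T1, a mouse mammary tumour line, across 18 poly(A) RNA libraries. Members were every gene row whose symbol began with mt-, Nduf, Uqcr, Atp5 or Cox4 to Cox8, together with Sdha, Sdhb, Sdhc and Sdhd. This gave 129 of 34591 gene symbols: 37 of the mitochondrial genome and 92 of the nucleus. Those with a mean of at least 1 CPM (read counts scaled to a common library size) in any of the 6 groups were used, which left 16 mitochondrial and 84 nuclear rows, 100 in all. Of these, 98 reached 1 CPM in every group, and 97 reached 5 CPM in at least 1 group. The 29 rows left out were 21 mitochondrial transfer RNAs and 8 nuclear isoform genes. Just inside the threshold, the highest group means were 1.62 CPM for mt-Tp and 1.63 CPM for Atp5l-ps1. Just outside it were mt-Tq at 0.730, mt-Tw at 0.508 and Cox7a1 at 0.498 CPM. The symbol rule also caught 5 nuclear rows that are not counted here as chain subunits: Cox4nb, a gene of the endoplasmic reticulum membrane protein complex, and Atp5s, Atp5sl, Atp5l2 and Atp5l-ps1.

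Each of the 6 groups held 3 cultures. Parental 4T1 cells were kept for 24 h in fresh RPMI medium with 2 ng/mL recombinant human TGFb1, or in fresh RPMI alone (untreated). The stable lines were 4T1 cells carrying a lentiviral vector for Wisp1, a secreted matricellular protein, or the empty vector (EV), both selected with puromycin. Each line was grown on dishes coated with collagen type I and on uncoated tissue culture plastic, and RNA was taken from subconfluent cultures. The labels name a single stable line per vector, so the replicates are cultures of that line or of the parental cells, and p-values measure the spread between cultures. The labels give no library date or run.

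Oxidative phosphorylation passes electrons from NADH through complex I, or from succinate through complex II, to ubiquinone, then through complex III and cytochrome c to complex IV, which reduces oxygen. Complexes I, III and IV pump protons across the inner mitochondrial membrane, and the ATP synthase, complex V, uses that gradient to make ATP. A few membrane subunits of complexes I, III, IV and V are encoded by the circular mitochondrial DNA, while all of complex II and every other subunit come from nuclear genes. The mitochondrial genes are read as long transcripts of either strand that are cut into single RNAs: all the mRNAs but mt-Nd6 lie on the transcript known as the heavy-strand transcript, and mt-Nd6 on the opposite one.

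Neighbouring mitochondrial genes share bases. The 2 pairs shown hold mt-Nd6 and mt-Atp8, which were not called on collagen in either line, and mt-Nd5 and mt-Atp6, which were called in both. A further pair, mt-Nd4l and mt-Nd4, shares 7 bases on the same strand and is not printed. Both of its genes were called in both lines. What the shared bases do to the counts was not tested. Shown are the last 60 bases of mt-Nd5 and mt-Nd6, which meet end to end on opposite strands, the last 60 of mt-Atp8, and the first 60 of mt-Atp6, which overlap on the same strand. Capitals mark the bases that a gene shares with its neighbour. The sequences are those of the GENCODE M21 transcripts of the reference mouse mitochondrial genome, 5′ to 3′ on each gene's own strand.
mt-Nd5: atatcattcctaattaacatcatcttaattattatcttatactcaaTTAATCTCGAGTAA
mt-Nd6: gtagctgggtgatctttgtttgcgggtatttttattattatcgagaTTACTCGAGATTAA
mt-Atp8: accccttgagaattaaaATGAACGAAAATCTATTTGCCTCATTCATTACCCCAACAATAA
mt-Atp6: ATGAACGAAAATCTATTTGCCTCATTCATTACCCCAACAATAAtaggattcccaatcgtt
The first pair shared 14 bases and the second 43. The strand setting of the authors' counting is not given in the sources used here, so counts of mt-Nd6 and of RNA read from the opposite strand over that gene cannot be told apart. Reads called ambiguous between genes were a separate summary entry of each library and were not in the gene counts. The rule by which a read over 2 genes was called ambiguous is likewise not given.

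Counts on genes per library ran from 37552858 to 94401699. Reads called ambiguous between genes came to 1.79 to 1.89% in EV cells on collagen, against 1.35 to 1.65% in EV cells on plastic, and to 1.84 to 2.08% in Wisp1 cells on collagen, against 1.61 to 1.95% in Wisp1 cells on plastic. Reads not aligned came to 1.85 to 2.03% in Wisp1 cells on collagen, against 2.07 to 2.81% in Wisp1 cells on plastic, and to 1.84 to 2.55% in EV cells on collagen, against 2.56 to 3.05% in EV cells on plastic. The part of both in the results was not tested. Epithelial markers (Epcam, Cdh1, Krt8, Krt18, Krt7) summed to 3046 to 5825 CPM per library, so the cultures carried the markers of their labelled origin. All 5 leukocyte markers together reached at most 3.51 CPM in any library, the 4 endothelial markers 0.46 CPM and the 4 muscle markers 3.14 CPM. Counts of Wisp1 matched the labels, at 1058 to 1127 CPM in Wisp1 cells on collagen, against 14.3 to 16.4 CPM in EV cells on collagen, and at 892 to 1065 CPM in Wisp1 cells on plastic, against 36.5 to 71.4 CPM in EV cells on plastic. Wisp1 also stood at 278 to 610 CPM with TGFb1, against 9.14 to 39.9 CPM in untreated cells.

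The share of gene counts on the 37 mitochondrial rows separated the cultures into 3 levels. It was 1.45, 1.14 and 1.31% in TGFb1-treated cells and 1.36, 1.17 and 1.25% in untreated parental cells. It was 0.766, 0.911 and 1.07% in Wisp1 cells on collagen and 0.617, 0.583 and 0.596% in Wisp1 cells on plastic. In EV cells it was 0.855, 0.983 and 0.993% on collagen and 0.599, 0.567 and 0.572% on plastic. Every collagen library lay above every plastic library of the stable lines, and every parental library above every stable-line library. The 84 nuclear members took 0.828 to 0.900% of counts with TGFb1 and 0.909 to 0.972% in untreated cells, and 0.999 to 1.03% on collagen against 1.02 to 1.06% on plastic. A share of counts is relative: more mitochondrial RNA per cell and less of other RNA cannot be told apart in it, nor can a change in every cell and in a part of the cells.

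**Figure D1:**
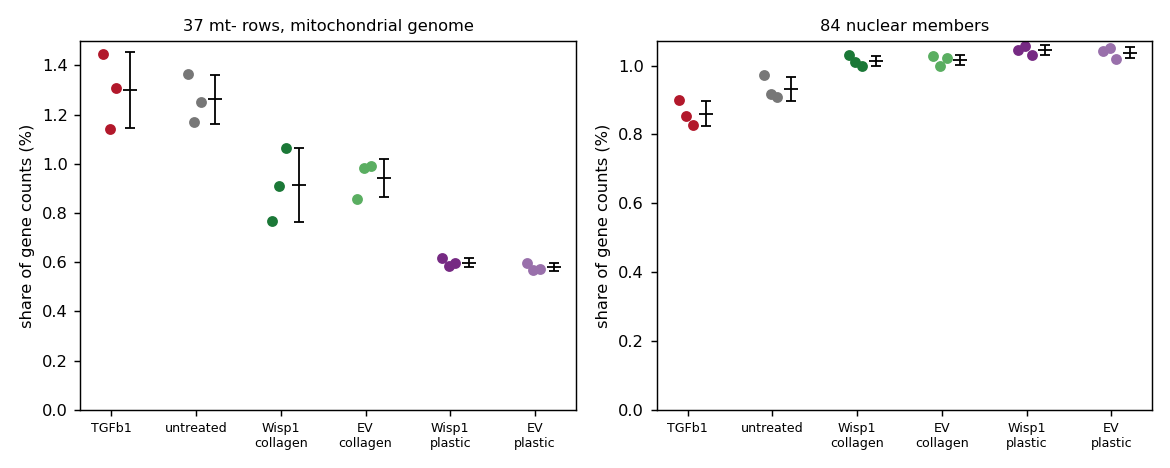
Share of gene counts (percent) on the 37 mitochondrial rows (left) and the 84 nuclear members (right) in each library (points), with the mean and SD of 3 cultures beside them. Mitochondrial shares of 0.766 to 1.07% on collagen lie above the 0.567 to 0.617% on plastic. The nuclear shares of the stable lines lie close together at 0.999 to 1.06%, and those of the parental cells lie lower at 0.828 to 0.972%.

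Levels per kilobase of gene, which allow only a rough comparison between genes, spread widely over the mitochondrial genes. The lengths are those of GENCODE M21, while the annotation of the counts and the handling of multiply aligned reads are not given. Reads over shared bases may also be missing from the counts. In EV cells on collagen, mt-Co1, a catalytic subunit of complex IV, was highest at 1720 CPM per kilobase, followed by mt-Nd1 at 1150, mt-Co2 at 1134 and mt-Cytb, the cytochrome b of complex III, at 1047. Lowest of the 16 was the transfer RNA gene mt-Tp at 24.2 CPM per kilobase, and above it stood the ribosomal RNA mt-Rnr1 at 69.8, mt-Nd6 at 74.8 and the ribosomal RNA mt-Rnr2 at 97.0. The libraries were made from poly(A) RNA, and the levels of the ribosomal RNAs and of mt-Nd6 here are those of the captured part only.

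Growth on collagen, compared with plastic, raised nearly all mRNAs of the heavy-strand transcript in both stable lines, and neither the ribosomal RNAs nor mt-Nd6 passed the test. In Wisp1 cells 10 of the 16 mitochondrial rows were higher on collagen and 0 lower, and in EV cells 11 were higher and 0 lower (edgeR quasi-likelihood test, adjusted p under 0.05). Of all genes tested, 21.3% were called higher and 19.1% lower on collagen in Wisp1 cells, and 19.2% higher and 17.3% lower in EV cells. Values did not overlap between collagen and plastic for 10 of the 16 rows in Wisp1 cells and 13 in EV cells, against 51.1% and 46.6% of all genes. The median log2 change over the 16 rows was 0.47 in Wisp1 cells and 0.62 in EV cells, against 0.01 and 0.001 over all genes tested. All 10 rows called in Wisp1 cells were also called in EV cells, where they made up 90.9% of the calls; the other was mt-Nd3. The lines are not independent of each other, since their cultures of a substrate deviated together by number and both comparisons come from the same fit.

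Cytochrome b showed the largest change in EV cells. mt-Cytb measured 958, 1147 and 1331 CPM in Wisp1 cells on collagen, against 684, 651 and 744 CPM in Wisp1 cells on plastic. In EV cells it measured 1040, 1257 and 1298 CPM on collagen, against 657, 619 and 677 CPM on plastic. The groups did not overlap in either line, and the log2 change was 0.73 ± 0.11 in Wisp1 cells (SE, n = 3 per group, adjusted p = 0.000342) and 0.89 ± 0.11 in EV cells (adjusted p = 0.000107), or 1.66-fold and 1.85-fold. mt-Co1, with the most counts of any mitochondrial row, averaged 2594 ± 335 CPM on collagen and 1589 ± 38 CPM on plastic in Wisp1 cells (SD, n = 3 each). The EV cells averaged 2658 ± 242 CPM on collagen and 1595 ± 35 CPM on plastic. Its log2 change was 0.72 ± 0.08 and 0.74 ± 0.08 in those lines, and the other complex IV subunits followed with 0.51 and 0.64 for mt-Co2 and 0.61 and 0.71 for mt-Co3.

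Complex I has the most mitochondrial genes. On the log2 scale mt-Nd4l rose by 0.76 in Wisp1 and 0.87 in EV cells, mt-Nd4 by 0.74 and 0.87, and mt-Nd5 by 0.72 and 0.88. mt-Nd2 rose by 0.47 in Wisp1 and 0.63 in EV cells and mt-Nd1 by 0.44 and 0.60. Of the heavy-strand genes of complex I, mt-Nd3 changed least: it averaged 166 ± 16 CPM on collagen and 147 ± 9.4 CPM on plastic in Wisp1 cells (log2 change 0.18 ± 0.07, adjusted p = 0.0566, not called). In EV cells its mean was 159 ± 7.8 CPM on collagen and 140 ± 8.2 CPM on plastic (0.19 ± 0.07, adjusted p = 0.044). The EV call of mt-Nd3 was lost without EV plastic replicate 1, at 0.19 (adjusted p = 0.103), or 3, at 0.16 (adjusted p = 0.139), and without EV collagen replicate 1, at 0.18 (adjusted p = 0.104), or 3, at 0.17 (adjusted p = 0.12). In Wisp1 cells mt-Nd3 was called without Wisp1 plastic replicate 2, at 0.23 (adjusted p = 0.0361), and without Wisp1 collagen replicate 1, at 0.25 (adjusted p = 0.00974). The Wisp1 call of mt-Nd1 was lost without Wisp1 collagen replicate 3, at 0.26 (adjusted p = 0.0637), without Wisp1 collagen replicate 2, at 0.44 (adjusted p = 0.0515), and without Wisp1 plastic replicate 2, at 0.41 (adjusted p = 0.0698), or 3, at 0.42 (adjusted p = 0.0651).

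Of the ATP synthase genes that overlap in sequence, mt-Atp6 was called on collagen in both lines and mt-Atp8 in neither; the difference between them was not tested. mt-Atp6 measured 417, 524 and 619 CPM in Wisp1 cells on collagen, against 362, 379 and 400 CPM in Wisp1 cells on plastic, and 453, 530 and 628 CPM in EV cells on collagen, against 344, 347 and 366 CPM in EV cells on plastic. Its log2 change was 0.46 ± 0.14 (adjusted p = 0.0191) and 0.61 ± 0.14 (adjusted p = 0.00487). The Wisp1 call was lost without Wisp1 plastic replicate 1, at 0.43 (adjusted p = 0.061), or 2, at 0.46 (adjusted p = 0.0506), and without Wisp1 collagen replicate 3, at 0.31 (adjusted p = 0.0604). mt-Atp8, whose last 43 bases are the first of mt-Atp6, measured 38.3, 45.1 and 53.1 CPM in Wisp1 cells on collagen, against 51.5, 49.6 and 39.9 CPM in Wisp1 cells on plastic (-0.04 ± 0.11, adjusted p = 0.812). In EV cells it measured 54.2, 54.9 and 58.7 CPM on collagen, against 47.5, 49.3 and 48.6 CPM on plastic (0.21 ± 0.11, adjusted p = 0.156). The values of mt-Atp8 on collagen and plastic overlapped in Wisp1 cells and did not overlap in EV cells. mt-Atp8 has 204 bases, of which 43 are shared.

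**Figure D2:**
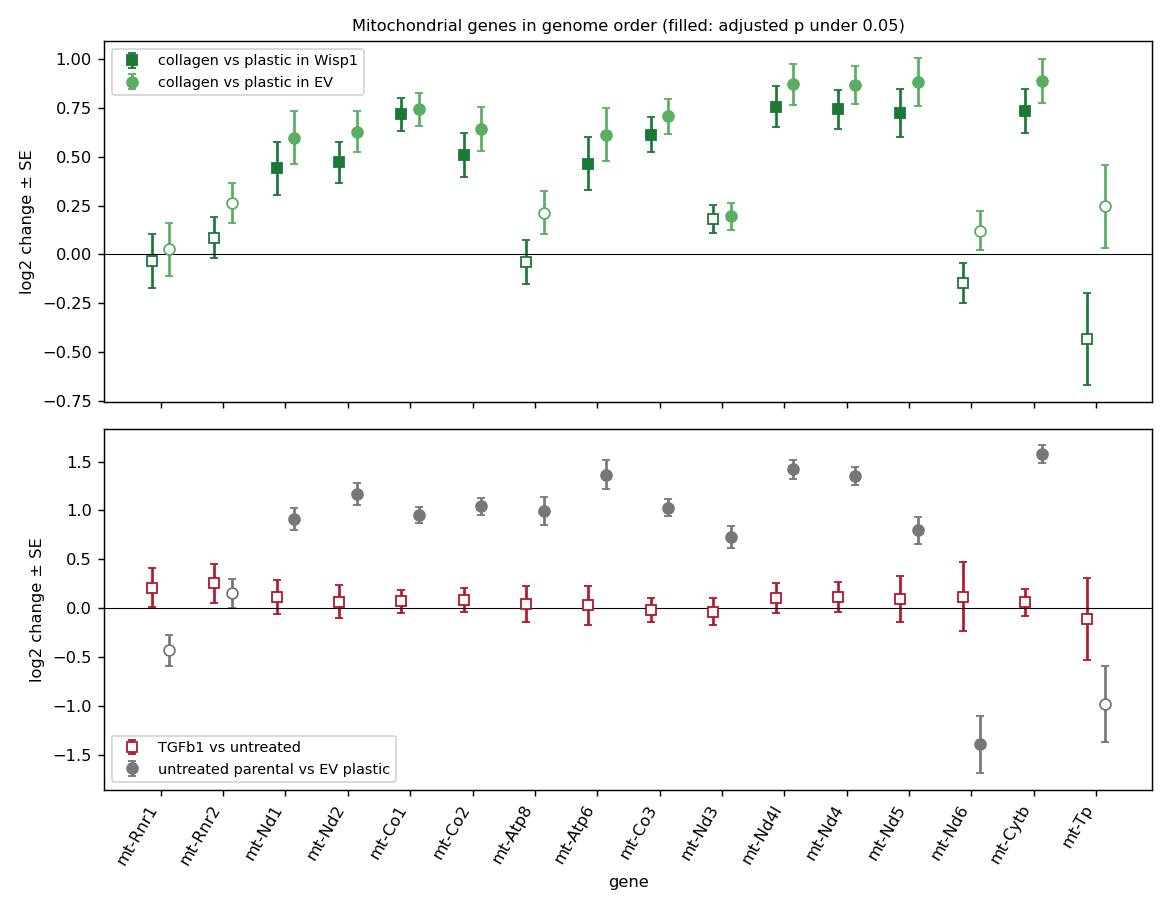
Log2 change ± SE of the mitochondrial genes in their order along the genome, for collagen against plastic in Wisp1 cells (squares) and EV cells (circles) above, and for TGFb1 against untreated cells and untreated parental against EV cells on plastic below. Filled symbols passed the test; on collagen these run from 0.19 for mt-Nd3 to 0.89 for mt-Cytb in EV cells, with mt-Nd6 and the ribosomal RNAs open.

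mt-Nd6, the complex I gene of the opposite strand, measured 27.9, 30.9 and 33.5 CPM in Wisp1 cells on collagen, against 37.7, 35.7 and 29.5 CPM in Wisp1 cells on plastic (log2 change -0.15 ± 0.10, adjusted p = 0.278). The EV cells had 36.9, 40.3 and 39.2 CPM on collagen, against 39.2, 32.6 and 35.9 CPM on plastic (0.12 ± 0.10, adjusted p = 0.373). The ranges overlapped in both lines. The large ribosomal RNA mt-Rnr2 averaged 147 ± 12 CPM on collagen and 139 ± 17 CPM on plastic in Wisp1 cells (log2 change 0.09, adjusted p = 0.534). In EV cells it averaged 153 ± 6.8 CPM on collagen and 128 ± 15 CPM on plastic (0.26, adjusted p = 0.062). Its ranges overlapped in Wisp1 cells and did not overlap in EV cells. The small one, mt-Rnr1, had log2 changes of -0.03 in Wisp1 and 0.03 in EV cells.

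Ratios of genes within libraries, chosen after the values were seen, set members against each other. For every 100 counts of mt-Nd5 there were 4.84, 4.33 and 3.99 counts of mt-Nd6 in Wisp1 cells on collagen, against 8.82, 8.61 and 6.42 in Wisp1 cells on plastic. In EV cells there were 5.88, 5.10 and 4.89 on collagen, against 9.94, 8.13 and 8.71 on plastic. All 6 collagen libraries lay below all 6 plastic libraries, and the mean log2 ratio difference between collagen and plastic was -0.80 (two-sided exact permutation test, p = 0.1, 0.2 adjusted over 2 ratios). Since Wisp1 and EV cultures of a substrate are paired by number, the 6 pairs were permuted as units, and 0.1 is the smallest p that the 20 arrangements can give, so the test could not pass 0.05. For mt-Rnr2 there were 16.1, 13.8 and 12.3 counts per 100 of its neighbour mt-Nd1 in Wisp1 cells on collagen, against 17.8, 19.5 and 15.5 in Wisp1 cells on plastic, and 15.1, 13.8 and 13.1 in EV cells on collagen, against 18.4, 18.9 and 15.4 in EV cells on plastic. The log2 ratio differed by -0.32 (exact permutation p = 0.2, adjusted p = 0.2), with 1 Wisp1 collagen library inside the range of its plastic libraries.

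**Figure D3:**
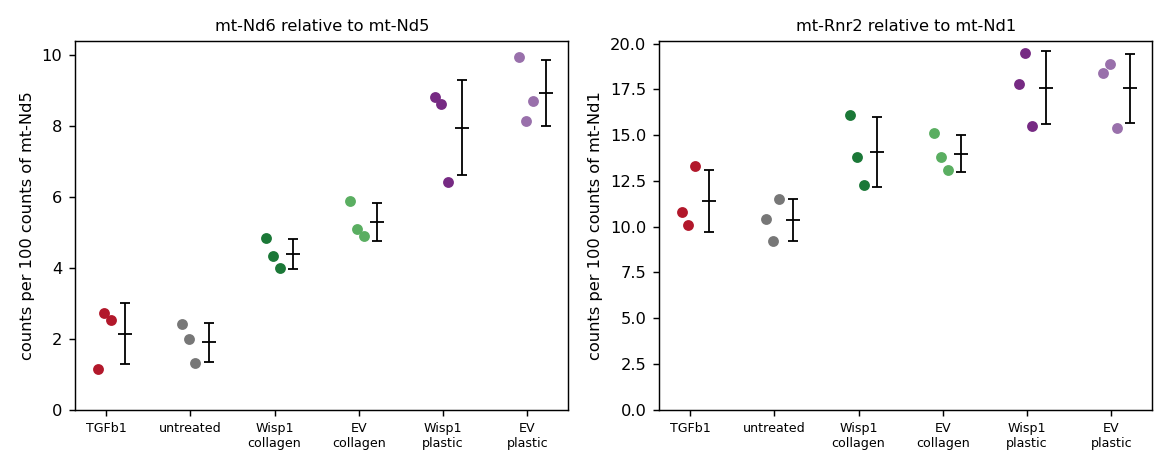
Counts of mt-Nd6 per 100 counts of mt-Nd5 (left) and of mt-Rnr2 per 100 counts of mt-Nd1 (right) in each library, with the mean and SD of 3 cultures. For mt-Nd6 the collagen libraries of both stable lines lie at 3.99 to 5.88, below the plastic libraries at 6.42 to 9.94, and the parental libraries lie lower still at 1.15 to 2.72.

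The nuclear members changed little on collagen and in both directions. In Wisp1 cells 7 of 84 were higher and 22 lower, and in EV cells 9 were higher and 18 lower. Of all genes tested, 40.4% were called in Wisp1 cells, 21.3% higher and 19.1% lower. In EV cells 36.5% were called, 19.2% higher and 17.3% lower. The same shares stand beside the counts per complex below. Over both directions together, the nuclear members' share lay near or below that of all genes. By direction, their share of higher calls lay below that of all genes and their share of lower calls above it. The median log2 change was -0.04 and -0.01. The largest change of a called nuclear member was -0.51 (Ndufaf4 in Wisp1 cells). Higher in both lines were 5 genes, and lower in both were 16, while 0 were called in opposite directions. The difference between the lines in the change on collagen was called for 0 of the 100 members, and for 0 of all genes, in the fit without a block. The shared 5 made up 71.4% of the higher nuclear calls in Wisp1 and 55.6% in EV cells, and the shared 16 made up 72.7% and 88.9% of the lower ones. In a fit of all 18 libraries with a common spread, 7 nuclear members were called in Wisp1 and 5 in EV cells, and the mitochondrial count was 8 and 10, while the calls over all genes were 2071 in Wisp1 and 1629 in EV cells, against 5641 and 5095. For all genes the shared calls were 73.2% of the higher and 71.5% of the lower in Wisp1 cells, and 81.3% and 78.9% in EV cells. As above, the lines are not independent of each other.

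In complex I, which takes electrons from NADH, the 7 nuclear core subunits held 0 higher and 3 lower genes in each line. The iron-sulfur subunit gene Ndufs8 measured 65.3, 63.7 and 60.01 CPM in Wisp1 cells on collagen, against 75.4, 76.6 and 78.0 CPM in Wisp1 cells on plastic, and 64.4, 63.8 and 65.5 CPM in EV cells on collagen, against 70.2, 75.2 and 74.5 CPM in EV cells on plastic. The groups did not overlap, and its log2 change was -0.28 ± 0.04 (adjusted p = 8.27e-05) and -0.18 ± 0.04 (adjusted p = 0.00223). Ndufs1, the largest iron-sulfur subunit, fell by 0.17 in Wisp1 cells and 0.13 in EV cells on the log2 scale (adjusted p = 0.00376 and 0.0186). Its EV call was lost without EV plastic replicate 1, at -0.11 (adjusted p = 0.0792), and without EV collagen replicate 1, at -0.13 (adjusted p = 0.054), or 2, at -0.13 (adjusted p = 0.064). The others called lower were Ndufv1 in Wisp1 cells and Ndufv2 in EV cells. Of the 29 accessory subunits, 2 were higher and 7 lower in Wisp1 cells, and 3 higher and 5 lower in EV cells.

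Ndufb7 rose most in EV cells: it measured 60.5, 62.8 and 66.6 CPM on collagen, against 49.8, 49.1 and 52.3 CPM on plastic (0.34 ± 0.05, adjusted p = 0.000178). In Wisp1 cells it measured 59.96, 58.8 and 57.7 CPM on collagen, against 54.7, 51.3 and 58.8 CPM on plastic, and the ranges overlapped (0.11 ± 0.05, adjusted p = 0.109). The difference between the lines, Wisp1 minus EV, was -0.23 ± 0.07 with an unadjusted p of 0.00594 and an adjusted p of 0.973; with EV and Wisp1 cultures of a substrate paired by number it was -0.23 (adjusted p = 0.0385), and 0.502% of all genes were called there. Ndufa2 also rose in EV cells, by 0.21, and Ndufb11 in both lines, by 0.17 in Wisp1 and 0.14 in EV cells. Ndufv3 rose by 0.29 in Wisp1 cells (adjusted p = 0.0342), a call that was lost without Wisp1 plastic replicate 1, at 0.24 (adjusted p = 0.126), or 2, at 0.29 (adjusted p = 0.0774), and without Wisp1 collagen replicate 1, at 0.16 (adjusted p = 0.169). Among accessory subunits that fell, Ndufa10 was -0.26 in Wisp1 and -0.22 in EV cells, Ndufb3 -0.20 and -0.21, and Ndufb4 was at -0.18 in Wisp1 cells (adjusted p = 0.0657, not called) and -0.22 in EV cells (adjusted p = 0.0326). The Ndufb4 call was lost without EV plastic replicate 1, at -0.21 (adjusted p = 0.0764), 2, at -0.21 (adjusted p = 0.084), or 3, at -0.23 (adjusted p = 0.0501), and without EV collagen replicate 2, at -0.22 (adjusted p = 0.0793), or 3, at -0.18 (adjusted p = 0.108).

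The assembly factors of complex I, which help build it but do not stay in it, included Ndufaf4, the nuclear member with the largest called fall in Wisp1 cells. Ndufaf4 measured 25.6, 32.8 and 36.1 CPM in Wisp1 cells on collagen, against 46.7, 43.6 and 44.6 CPM in Wisp1 cells on plastic (-0.51 ± 0.11, adjusted p = 0.00317). In EV cells it measured 31.1, 35.1 and 36.6 CPM on collagen, against 44.4, 39.2 and 45.3 CPM on plastic (-0.32 ± 0.11, adjusted p = 0.0384). Each collagen library lay below each plastic library of its line. The EV call was lost without EV plastic replicate 1, at -0.28 (adjusted p = 0.111), or 3, at -0.28 (adjusted p = 0.113), and without EV collagen replicate 1, at -0.26 (adjusted p = 0.131), 2, at -0.34 (adjusted p = 0.068), or 3, at -0.36 (adjusted p = 0.0507). Ndufaf2 fell by 0.30 in Wisp1 and 0.29 in EV cells on the log2 scale, while neither Ndufaf1 nor Ndufaf3 was called.

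Complex II, which links the citric acid cycle to the chain, held a single call. Sdhd, a membrane anchor, was -0.10 on collagen in Wisp1 cells (adjusted p = 0.0376) and -0.06 in EV cells (adjusted p = 0.258). Its flavoprotein gene Sdha averaged 205 ± 4.3 CPM on collagen and 214 ± 3.5 CPM on plastic in Wisp1 cells, and 206 ± 7.9 CPM on collagen and 214 ± 2.8 CPM on plastic in EV cells, with adjusted p = 0.189 and 0.281. In complex III 5 of 8 members were lower in each line, and they were the same 5: Uqcrc1 and Uqcrc2, the core proteins, Uqcrfs1, the Rieske iron-sulfur protein, and Uqcrb and Uqcrq, small subunits. Uqcrc1 measured 267, 259 and 253 CPM in Wisp1 cells on collagen, against 294, 309 and 317 CPM in Wisp1 cells on plastic, and 251, 254 and 271 CPM in EV cells on collagen, against 287, 297 and 290 CPM in EV cells on plastic. Its log2 change was -0.23 ± 0.04 and -0.16 ± 0.04 (adjusted p = 0.000276 and 0.00343), and the ranges did not overlap. The small subunit gene Uqcr11 was called higher in EV cells at 0.21 (adjusted p = 0.00416) and not in Wisp1 cells at 0.09 (adjusted p = 0.149).

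Complex IV, the terminal oxidase, held 4 higher and 1 lower gene of 12 in Wisp1 cells, and 3 higher and 1 lower in EV cells. Those called higher included small supernumerary subunits. Cox6c measured 244, 237 and 245 CPM in Wisp1 cells on collagen, against 213, 196 and 201 CPM in Wisp1 cells on plastic, and 260, 243 and 245 CPM in EV cells on collagen, against 215, 207 and 205 CPM in EV cells on plastic. No collagen library lay within the plastic range, and the log2 change was 0.26 ± 0.05 and 0.26 ± 0.05 (adjusted p = 0.000595 and 0.000627). In the fit of all 18 libraries Cox6c was not called, at 0.23 in each line (adjusted p = 0.0612 in Wisp1 and 0.0685 in EV cells). Cox6a1 rose by 0.24 in Wisp1 and 0.25 in EV cells, calls also lost in that fit (0.21, adjusted p = 0.0769, and 0.23, adjusted p = 0.0709), and Ndufa4, first named as a complex I subunit, by 0.16 and 0.14. Cox7a2l, a factor of supercomplexes, rose by 0.24 in Wisp1 cells (adjusted p = 0.0114), with 0.21 (adjusted p = 0.051) without Wisp1 plastic replicate 1 and 0.15 (adjusted p = 0.0462) without Wisp1 collagen replicate 1. The lower gene was Cox5a, at 113, 113 and 110 CPM in Wisp1 cells on collagen, against 149, 151 and 130 CPM in Wisp1 cells on plastic, and at 106, 111 and 122 CPM in EV cells on collagen, against 123, 154 and 148 CPM in EV cells on plastic. Its log2 change was -0.35 ± 0.08 and -0.32 ± 0.08 (adjusted p = 0.00293 and 0.00519). Cox4i1, the main isoform of subunit 4, was not called, at 0.04 and 0.05.

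In complex V 1 of 15 members was higher and 3 lower in Wisp1 cells, and 2 were higher and 2 lower in EV cells. Atp5b, the catalytic beta subunit, averaged 1657 ± 22 CPM on collagen and 1905 ± 39 CPM on plastic in Wisp1 cells, and 1660 ± 69 CPM on collagen and 1853 ± 43 CPM on plastic in EV cells. Its log2 change was -0.19 ± 0.04 and -0.15 ± 0.04 (adjusted p = 0.000904 and 0.00462), and the gamma subunit gene Atp5c1 fell by 0.12 and 0.12. Atp5e, the epsilon subunit of the same rotor, rose by 0.16 in Wisp1 and 0.17 in EV cells. Its EV call was lost without EV plastic replicate 2, at 0.16 (adjusted p = 0.0555), and without EV collagen replicate 1, at 0.15 (adjusted p = 0.0539). None of the 5 rows that are not chain subunits was called in either line. Counts of subunits with processed copies elsewhere in the genome are uncertain, because no source used here says how multiply aligned reads were handled.

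**Figure D4:**
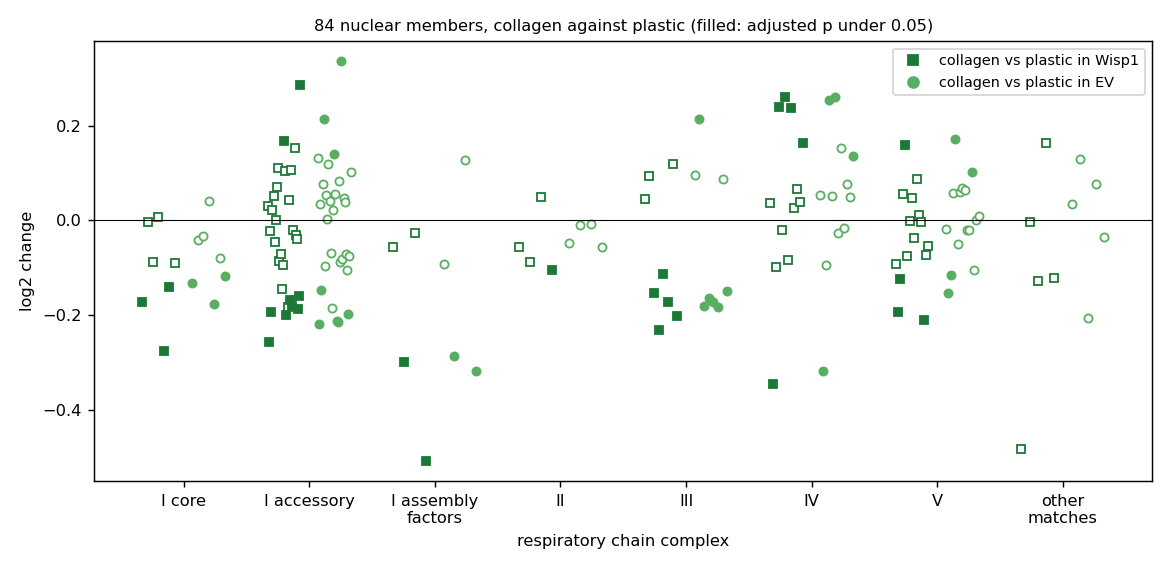
Log2 change on collagen against plastic of the 84 nuclear members by complex, in Wisp1 cells (squares) and EV cells (circles); filled symbols passed the test. Changes run from -0.51 to 0.34 among called members, with 5 of 8 members of complex III lower in each line.

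**Figure D5:**
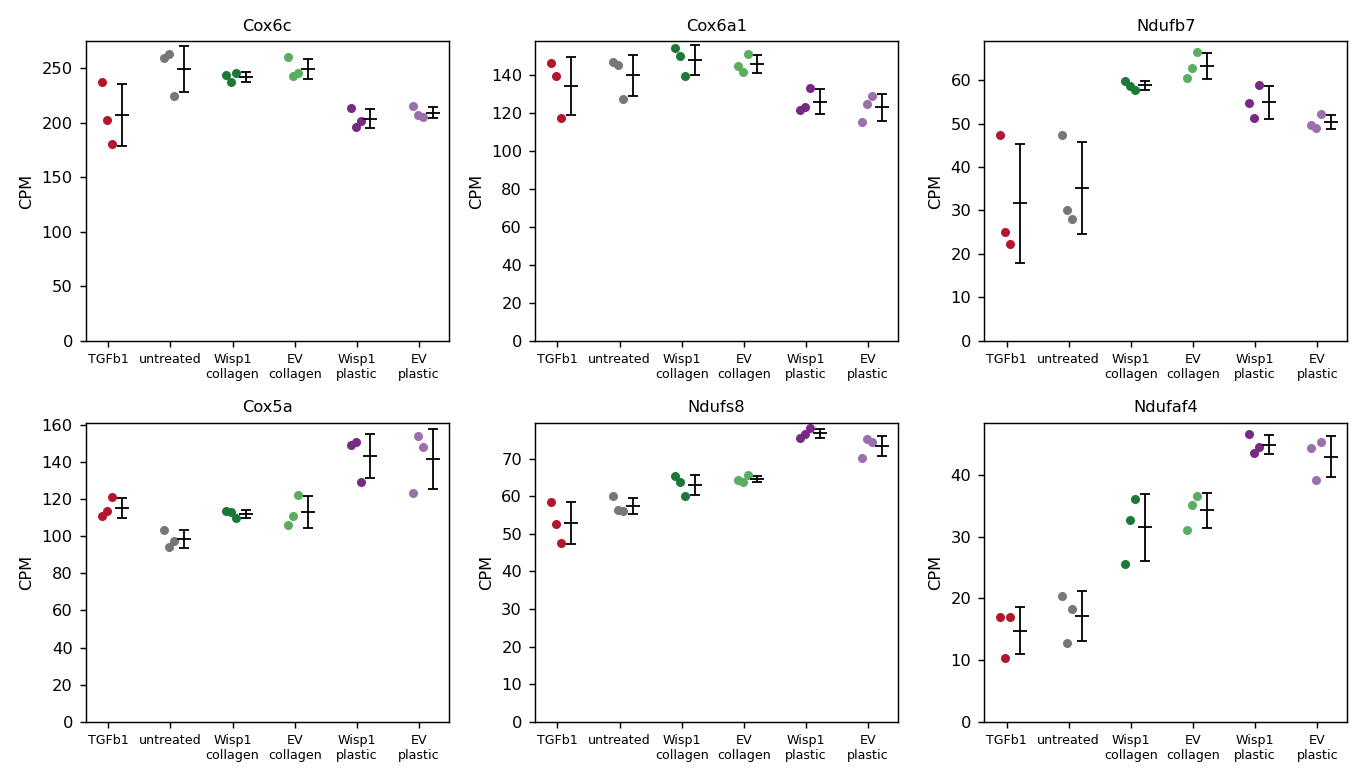
CPM of 6 nuclear members in each library, with the mean and SD of 3 cultures. Cox6c, Cox6a1 and Ndufb7 (top) are higher on collagen in EV cells, and Cox5a, Ndufs8 and Ndufaf4 (bottom) are lower on collagen in both stable lines.

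Promoters were read for what the members share that the symbols did not choose. RefSeq (GRCm38.p6) promoter entries were matched for 70 of the 84 nuclear members. The window from 250 bases before to 50 after each start was searched on both strands for the motif of NRF1, a transcription factor of respiratory genes, spelled GCGCA, any base, GCGC. It was in 18 of those 70 (25.7%), against 1402 of 27025 genes with a promoter entry (5.19%), and before the start alone in 14, against 4.23%. The 27025 genes were not chosen by expression, while the members had to reach 1 CPM in a group. The sets are therefore not matched for expression, here or for the other motifs, and expressed genes alone were not tested as background. The YY1 motif AAGATGGCG was in 8 (11.4%), against 1.64% of all promoters, and the ETS motif CCGGAAGT in 5 (7.14%), against 4.31%; before the start alone they were in 2 (2.86%, against 0.71%) and 3 (4.29%, against 3.23%). Among members lower on collagen in both lines, 4 of the 12 matched promoters held the NRF1 motif (Atp5c1, Ndufaf4, Ndufs5, Uqcrc1), and 1 of 4 among those higher in both (Cox6a1). Cox6a1 and Ndufaf4 are printed because they moved in opposite directions on collagen and both held it; shown are the 250 bases before the start, with the matches in capitals, which begin 162 and 117 bases before the start in Cox6a1 and 113 bases before it in Ndufaf4.
Cox6a1, GRCm38.p6 chr5:115348959-115349208, minus strand: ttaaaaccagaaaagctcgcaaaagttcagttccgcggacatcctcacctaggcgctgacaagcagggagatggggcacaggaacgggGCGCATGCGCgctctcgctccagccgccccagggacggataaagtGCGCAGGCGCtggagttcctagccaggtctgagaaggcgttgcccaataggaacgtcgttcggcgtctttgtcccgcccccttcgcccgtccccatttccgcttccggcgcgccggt
Ndufaf4, GRCm38.p6 chr4:24897833-24898082, plus strand: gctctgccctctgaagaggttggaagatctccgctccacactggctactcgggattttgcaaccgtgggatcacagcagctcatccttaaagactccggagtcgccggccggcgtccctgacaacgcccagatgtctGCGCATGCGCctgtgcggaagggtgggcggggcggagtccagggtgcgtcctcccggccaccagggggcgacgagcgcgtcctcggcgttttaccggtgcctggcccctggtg
A match describes the letters in this window and does not show binding in these cells.

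The other genes of mitochondria were counted in lists chosen together with the members. Paired log2 changes below are those in Wisp1 cells and then in EV cells. For each list, the shares over all genes tested were 21.3% higher and 19.1% lower on collagen in Wisp1 cells. In EV cells they were 19.2% higher and 17.3% lower. Of 20 tested genes for the copying, transcription and RNA handling of mitochondrial DNA, 0 were higher and 10 lower on collagen in Wisp1 cells, and 0 higher and 8 lower in EV cells (median log2 change -0.14 and -0.15). These included Ssbp1, which binds single-stranded mitochondrial DNA, at -0.30 and -0.29, Pnpt1, a mitochondrial RNA-degrading enzyme, at -0.21 and -0.29, and Supv3l1, its partner helicase, at -0.29 and -0.18. Elac2, which trims transfer RNAs, was -0.29 in Wisp1 cells. Of 79 mitochondrial ribosome genes, 3 were higher and 44 lower in Wisp1 cells, and 4 higher and 30 lower in EV cells. The largest changes were in Mrpl1 (-0.41), Mrpl47 (-0.41) and Mrpl16 (-0.38) in Wisp1 cells, and in Mrps18a (0.43), Mrpl33 (-0.39) and Mrpl23-ps1 (0.36) in EV cells. Mrpl23-ps1 is a pseudogene by its symbol. It is counted in the 79 and among the higher calls of both lines.

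Import and protein folding held the largest share of calls among these lists on collagen: 0 of 17 higher and 14 lower in Wisp1 cells, and 0 higher and 11 lower in EV cells. The chaperone genes Hspd1 and Hspe1 were -0.62 and -0.55 in Wisp1 cells and -0.52 and -0.40 in EV cells, and Tomm70a, an import receptor, -0.38 and -0.34. Of 13 citric acid cycle genes, 0 were higher and 7 lower in each line, among them citrate synthase, Cs (-0.35 and -0.27), Dld (-0.31 and -0.31) and Idh3a (-0.30 and -0.27). Of 15 carriers and subunits outside the symbol rule, 1 was higher and 8 lower in Wisp1 cells and 2 higher and 4 lower in EV cells, led by Higd1a (-0.52 and -0.47), Cycs, which encodes cytochrome c (-0.44 and -0.32), and the ADP/ATP carrier Slc25a5 (-0.36 and -0.24). Of 25 assembly genes, 0 were higher and 10 lower in Wisp1 cells and 0 higher and 6 lower in EV cells. The largest were Ecsit (-0.43), Foxred1 (-0.27) and Uqcc (-0.26) in Wisp1 cells, and Nubpl (-0.32), Tmem70 (-0.31) and Foxred1 (-0.26) in EV cells. Of 8 nuclear regulators, 2 were higher in both lines: Ppard (0.33 and 0.48) and the estrogen-related receptor Esrra (0.27 and 0.33). Yy1 was lower in both (-0.16 and -0.16), and Wisp1 cells had 3 lower in all. The lists' medians, all genes being at 0.01 in Wisp1 and 0.001 in EV cells, lay between -0.25 for import in Wisp1 cells and -0.02 for regulators in EV cells.

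Some marker sums moved with the groups and are given for that reason. The epithelial markers summed to 3759 to 4906 CPM in Wisp1 cells on collagen, against 3320 to 3702 CPM in Wisp1 cells on plastic, and to 3882 to 4257 CPM in EV cells on collagen, against 3291 to 3697 CPM in EV cells on plastic. The leukocyte markers summed to 1.98 to 3.51 CPM with TGFb1, against 0.734 to 1.06 CPM in untreated cells. The 5 fibroblast markers (Pdgfra, Dcn, Lum, Col3a1, Thy1) summed to 26.4 to 33.4 CPM in Wisp1 cells on collagen, against 15.4 to 18.1 CPM in Wisp1 cells on plastic, and to 24.4 to 29.7 CPM in EV cells on collagen, against 14.9 to 21.5 CPM in EV cells on plastic. In TGFb1-treated cells the fibroblast sum was 36.4 to 61.6 CPM, against 33.9 to 58.4 CPM in untreated cells. Nearly all of it was Pdgfra, while Dcn, Lum and Col3a1 had group means of at most 0.693 CPM and Thy1 was at 0 in every library. The part of these markers in the results was not tested.

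TGFb1 left the respiratory chain genes below the test's threshold in the fit of the 6 parental libraries. Of all genes tested, 11.1% were called, 6.14% higher and 4.92% lower, against 0 of 16 mitochondrial and 0 of 84 nuclear members; at an unadjusted p under 0.05 there were 0 mitochondrial rows, 2 higher and 5 lower nuclear members, and 24.9% of all genes. DESeq2 called 0 mitochondrial rows and 4 nuclear members, and a fit of all 18 libraries 0 and 11, while the calls over all genes were 2910 and 4865, against 1645. The median log2 change was 0.08 over the mitochondrial rows and -0.10 over the nuclear ones, against -0.01 over all genes. Among the smallest p were those of Atp5c1, the gamma subunit of complex V, at 275, 266 and 238 CPM with TGFb1, against 340, 325 and 299 CPM in untreated cells (-0.30 ± 0.09, adjusted p = 0.0963) and Ndufb11 (-0.26 ± 0.09, adjusted p = 0.126). The ranges of both did not overlap between the groups, which held for 11 nuclear members in all and for 30.5% of all genes.

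Cultures with the same code in the labels deviated together (correlations 0.79, 0.55 and 0.78), and replicate 1 stood apart from the others in both groups for several members. Uqcrc2 measured 126, 75.5 and 64.0 CPM with TGFb1, against 124, 70.4 and 55.3 CPM in untreated cells, and Ndufb7 47.4, 25.1 and 22.4 CPM with TGFb1, against 47.4, 30.1 and 27.9 CPM in untreated cells. In the fit with the code as a block, 44.9% of all genes were called, 22.4% higher and 22.5% lower, and 24 nuclear members passed, 3 higher and 21 lower. The higher ones included Cox5a (0.24, adjusted p = 0.0234) and Ndufa11 (0.21, adjusted p = 0.0308). Among the lower ones, complex V held 9 of its 15 members, from -0.30 for Atp5c1 to -0.16 for Atp5d, including Atp5g1, Atp5g2 and Atp5g3, which encode the same rotor subunit c. Complex IV added Cox8a (195, 177 and 137 CPM with TGFb1, against 236, 227 and 193 CPM in untreated cells; -0.36, adjusted p = 0.00145), Cox7a2 (-0.29) and Cox6c (-0.26). Complex III added Uqcr11 (-0.31), Uqcr10 (-0.31) and Uqcrfs1 (-0.22), and complex II Sdhd (-0.30) and Sdhb (-0.17). Complex I added Ndufaf2, Ndufb11, Ndufs4 and Ndufa13, from -0.31 to -0.19. In each of the 3 pairs, Cox8a was lower with TGFb1. Of the mitochondrial rows, 0 mRNAs and both ribosomal RNAs passed, mt-Rnr1 at 0.20 (adjusted p = 0.0333) and mt-Rnr2 at 0.25 (adjusted p = 0.0144). Over both directions, the blocked share of nuclear members, 28.6%, lay below the 44.9% of all genes. By direction, the 21 lower of 84 lay near the 22.5% of all genes, and the 3 higher lay below the 22.4%.

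Among the mitochondrial mRNAs, mt-Co1 measured 3304, 2801 and 3436 CPM with TGFb1, against 3030, 2808 and 3336 CPM in untreated cells, and mt-Cytb 2352, 1771 and 1835 CPM with TGFb1, against 2158, 1838 and 1765 CPM in untreated cells. The ranges overlapped, and the heavy-strand mRNAs had log2 changes between -0.04 and 0.11. mt-Nd6 measured 11.0, 14.8 and 17.9 CPM with TGFb1, against 20.5, 11.3 and 8.74 CPM in untreated cells, and its ratio to mt-Nd5 did not separate the groups (exact permutation p = 0.8, n = 3 per group, smallest possible 0.1). Of the representative subunits, Ndufs1 was at -0.04 ± 0.18, Sdha at -0.03 ± 0.10, Uqcrc1 at 0.12 ± 0.09, Cox4i1 at -0.04 ± 0.07 and Atp5b at -0.09 ± 0.11, none of them called. In the lists of other mitochondrial genes, without the block, 3 calls were made: Hsd17b10, a subunit of the mitochondrial RNase P, at -0.47, and the ribosome genes Mrps6 (-1.34) and Mrpl13 (-0.49). The other 5 lists held 0 calls.

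In the fit without a block, Wisp1 expression changed no member past the threshold on either substrate. On plastic 0.0143% of all genes were called, and on collagen 0.0717%; of the members, 0 were called on either, and 0 in the test of the difference between the Wisp1 effects on the 2 substrates, in which 0 of all genes passed and 2.94% had an unadjusted p under 0.05. At an unadjusted p under 0.05 there were, on plastic, 0 mitochondrial rows and 8 higher and 2 lower nuclear members, with 5.89% of all genes. On collagen there were 3 lower mitochondrial rows and 5 lower nuclear members, with 5.07% of all genes. DESeq2 called 0 members in each. On plastic the smallest p were those of Atp5o (0.12 ± 0.03, unadjusted p = 0.00353, adjusted p = 0.678), Ndufa2 (0.15 ± 0.05, adjusted p = 0.791) and Atp5h (-0.10 ± 0.04, adjusted p = 0.792). On collagen they were those of Atp5j2 (-0.10 ± 0.04), Ndufa1 (-0.16 ± 0.05) and Ndufb9 (-0.09 ± 0.03), with adjusted p of 0.857 to 0.898, and among mitochondrial mRNAs mt-Nd6 (-0.33 ± 0.10, adjusted p = 0.671) and mt-Atp8 (-0.30, adjusted p = 0.898). In the lists of other mitochondrial genes 0 calls were made.

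The numbered cultures of the stable lines deviated together between Wisp1 and EV cells within a substrate, though weakly on plastic. With that number as a block within each substrate, 3.15% of all genes were called on plastic, and so were mt-Atp6 (0.11, adjusted p = 0.0482), mt-Rnr2 (0.12), Atp5o (0.12) and Atp5g1 (0.12), all higher in Wisp1 cells, as were 2.08% of all genes. mt-Atp6 measured 362, 379 and 400 CPM in Wisp1 cells, against 344, 347 and 366 CPM in EV cells, higher in 3 of 3 pairs. On collagen 2.57% of all genes were called, with mt-Tp (-0.68), Ndufa1 (-0.16) and Atp5j2 (-0.10) lower in Wisp1 cells, as were 0.939% of all genes. mt-Tp, a transfer RNA gene near the threshold of 1 CPM, measured 0.773, 1.29 and 0.978 CPM in Wisp1 cells, against 1.25, 1.81 and 1.81 CPM in EV cells. Of the representative subunits, without the block, Uqcrc1 was at 0.08 ± 0.04 on plastic, and the other log2 changes lay between -0.04 and 0.04.

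In untreated parental cells, set against EV cells on plastic, the heavy-strand mRNAs were higher and mt-Nd6 was lower. This comparison joins lentiviral transduction, puromycin selection, the medium change before harvest and any difference between library runs, which cannot be told apart. Ambiguous reads were 1.02 to 1.07% in untreated parental cells, against 1.35 to 1.65% in EV cells on plastic, and their part was not tested. Of all genes tested 43.4% were called, 23.8% higher and 19.5% lower in parental cells. All 12 heavy-strand mRNAs were higher, by log2 changes from 0.73 (mt-Nd3) to 1.57 (mt-Cytb), and mt-Nd6 was lower. mt-Cytb measured 2158, 1838 and 1765 CPM in untreated parental cells, against 657, 619 and 677 CPM in EV cells on plastic (1.57 ± 0.09, adjusted p = 0.000268), 2.98-fold. mt-Atp8, which had not been called on collagen, measured 119, 87.1 and 80.6 CPM in parental cells, against 47.5, 49.3 and 48.6 CPM in EV cells (0.99 ± 0.14, adjusted p = 0.00217). mt-Nd6 measured 20.5, 11.3 and 8.74 CPM in parental cells, against 39.2, 32.6 and 35.9 CPM in EV cells (-1.40 ± 0.29, adjusted p = 0.00866), and per 100 counts of mt-Nd5 it had 2.41, 1.99 and 1.32 counts in parental cells, against 9.94, 8.13 and 8.71 in EV cells (log2 difference -2.26, exact permutation p = 0.1, the smallest that 3 against 3 can give). Values did not overlap for 14 of the 16 mitochondrial rows and for 49 of the 84 nuclear members, against 57.6% of all genes. Neither ribosomal RNA was called (adjusted p = 0.063 and 0.427).

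Most nuclear members called went the other way: 5 of 84 were higher and 30 lower in parental cells, and 49 were not called. Of all genes tested, 23.8% were called higher and 19.5% lower. The median log2 change of the 84 was -0.23, against 0.05 over all genes. Of the lower calls, complex I held 4 of its 7 core subunits, 14 of 29 accessory subunits and 2 of 4 assembly factors. Ndufaf4 measured 20.4, 12.7 and 18.3 CPM in untreated parental cells, against 44.4, 39.2 and 45.3 CPM in EV cells on plastic (-1.31 ± 0.18, adjusted p = 0.00194). The flavoprotein-arm subunit gene Ndufv2 was at -0.75 ± 0.15 (adjusted p = 0.00707), and the accessory genes Ndufa5, Ndufs6 and Ndufab1 at -0.78, -0.74 and -0.69. In complex III Uqcrc2 measured 124, 70.4 and 55.3 CPM in parental cells, against 189, 195 and 176 CPM in EV cells (-1.15 ± 0.27, adjusted p = 0.0122), a gene in which untreated replicate 1 stood apart, and Uqcrc1 was at -0.32 (adjusted p = 0.00775). Higher were Sdhc, a complex II anchor, at 166, 176 and 149 CPM in parental cells, against 121, 128 and 111 CPM in EV cells (0.46 ± 0.08, adjusted p = 0.00516), Cox7a2l (0.36), Uqcrh (0.27), Cox6c (0.26) and Ndufb11 (0.24). Sdha (-0.09) and Cox4i1 (-0.00) were not called, nor was Ndufs1 (-0.33, adjusted p = 0.0592), which passed without untreated replicate 1, at -0.27 (adjusted p = 0.0434), or 3, at -0.47 (adjusted p = 0.00234).

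The number of nuclear members called in that comparison depended on single libraries: it was 17 without untreated replicate 2 and 55 without untreated replicate 1, against 35 with all 6. The calls over all genes moved too, between 3711 without EV plastic replicate 3 and 8557 without untreated replicate 1, against 6276 with all 6. Uqcrc2 lost its call without untreated replicate 2, at -1.05 (adjusted p = 0.0581). Without that library Atp5b, called at -0.35 (adjusted p = 0.0146), was at -0.31 (adjusted p = 0.0565), Ndufab1 at -0.67 (adjusted p = 0.095), Ndufb11 at 0.23 (adjusted p = 0.0826), Uqcrh at 0.23 (adjusted p = 0.106) and Cox6c at 0.22 (adjusted p = 0.0966). The same 5 genes lost their calls without each EV plastic replicate in turn, with log2 changes, for replicates 1, 2 and 3, of -0.36 (adjusted p = 0.0552), -0.35 (adjusted p = 0.0589), -0.37 (adjusted p = 0.0531) for Atp5b and -0.77 (adjusted p = 0.0562), -0.65 (adjusted p = 0.0905), -0.66 (adjusted p = 0.0925) for Ndufab1. For Ndufb11 they were 0.24 (adjusted p = 0.119), 0.26 (adjusted p = 0.0846), 0.21 (adjusted p = 0.125), for Uqcrh 0.29 (adjusted p = 0.0775), 0.23 (adjusted p = 0.132), 0.26 (adjusted p = 0.107), and for Cox6c 0.28 (adjusted p = 0.0787), 0.24 (adjusted p = 0.118), 0.24 (adjusted p = 0.113). Cox6c was also lost without untreated replicate 1, at 0.20 (adjusted p = 0.0662). The mitochondrial count was 13 or 14 in all of these.

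The lists of other mitochondrial genes also held more lower than higher calls in parental cells, while 23.8% of all genes tested were called higher and 19.5% lower. Import and folding held 0 higher and 15 lower of 17, led by Hspd1 (-1.07), Tomm40, the import pore (-0.98), and Hspa9 (-0.79). The citric acid cycle held 0 higher and 9 lower of 13 (Suclg1 -0.69, Dld -0.60, Dlst -0.50), and the mitochondrial ribosome 4 higher and 37 lower of 79 (Mrps6 1.34, Mrpl4 -1.07, Mrps31 -0.92). Regulators held 0 higher and 6 lower of 8, with Gabpb1 at -0.93, Pprc1 at -0.78 and Ppargc1b at -0.67. Genes of mitochondrial DNA expression held 1 higher and 6 lower of 20 (Elac2 -0.84, Fastkd2 -0.84, Lrpprc -0.75), assembly genes 1 and 11 of 25 (Taco1 -1.43, Bcs1l -1.11, Ecsit -0.87), and carriers 0 and 6 of 15 (Higd1a -1.52, Slc25a5 -0.91, Cycs -0.84).

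The isoform genes below the threshold were at or near 0 in all groups, apart from Cox7a1, the heart and muscle isoform of subunit 7a. It had 30, 28 and 22 counts with TGFb1 and 42, 32 and 48 counts in untreated cells, and 1 to 8 counts in every stable-line library. Group means reached at most 0.104 CPM for Cox4i2, 0.0773 for Cox6a2, 0.033 for Ndufa4l2 and 0.0091 for Cox8b and Cox7b2. Cox6b2 and Cox8c had 0 counts in all 18 libraries.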

How the data were processed

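Poly(A) RNA was sequenced from 18 libraries of 4T1 cells with a stranded mRNA kit, per the labels' protocols. The deposited values are whole read counts per gene symbol, 1 library per file. The authors' tools, per the submitters' processing notes and listed there without roles, were STAR, BWA, HTSeq, CASAVA, R 3.2.4 and limma, on the mm9 build; no source used here gives the gene annotation or strand setting. The 5 summary entries of each library were left out of library sizes; reads on no feature made up 10.23 to 13.52% and ambiguous reads 1.02 to 2.08% of each library.

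CPM used TMM scaling over 18 libraries. Tests were edgeR 4.0.16 (R 4.3.3) quasi-likelihood tests on the counts, with filterByExpr, TMM and Benjamini-Hochberg adjustment over all genes tested: 14874 in the fit of the 6 parental libraries, 13953 in that of the 12 stable-line libraries and 14476 for parental against EV cells. A gene is called at an adjusted p under 0.05, and SE is the log2 change divided by the root of the F statistic. DESeq2 1.42.0 was an alternative. The procedure was run on simulated counts, but no recovery value is given here. A count of 0 calls is therefore not shown to be an absence of change. Counts per library were 37552858 to 94401699. Replicates differed by more than counting noise (chi-square per degree of freedom 3.25 to 212.5), so the spread between cultures limits the precision.

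Replicate numbers pair samples where each pair's deviations correlate above 0.1. This held for TGFb1 and untreated cultures, which share codes in their titles (0.79, 0.55, 0.78), and for Wisp1 and EV cultures on plastic (0.15, 0.24, 0.28) and on collagen (0.49, 0.17, 0.36). It did not hold between collagen and plastic in EV cells (0.14, -0.12, 0.28) or in Wisp1 cells (-0.04, -0.08, -0.01).

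The members and lists were chosen with earlier results of these data known, and the 2 ratios after their values were seen. Named genes were the mitochondrial mRNAs, per comparison the 6 called nuclear members with the largest rise and the 6 with the largest fall, or the 3 with the smallest p where fewer than 6 were called, Ndufs1, Sdha, Uqcrc1, Cox4i1 and Atp5b throughout, the isoforms below the threshold, and up to 3 called genes per list. Any further member named was picked with its values known. A gene that this rule names for TGFb1 is not reported here. The alternatives were DESeq2 size factors, DESeq2, no filter and a stricter filter on low counts, library sizes without mitochondrial rows, all 18 libraries in 1 fit, a replicate block, and leaving out each replicate. Promoters are RefSeq GRCm38.p6 and mitochondrial gene sequences GENCODE M21; no coordinate was converted between builds.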

Additional observations from a re-analysis of the deposited data

How the results depend on the processing

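No log2 change of a called and named member changed sign under any alternative run. Leaving out each library in turn, the mitochondrial rows called on collagen against plastic numbered 8 to 11 in Wisp1 and 10 to 11 in EV cells and the nuclear members 21 to 31 in Wisp1 and 20 to 22 in EV cells, with 4450 to 5443 and 3849 to 4598 calls over all genes. For untreated parental against EV cells on plastic they were 13 to 14 and 17 to 55, with 3711 to 8557 over all genes, and for TGFb1, Wisp1 against EV cells on either substrate and the difference between substrates they stayed at 0. With all 18 libraries in 1 fit, 7 nuclear members were called on collagen in Wisp1 cells, 5 in EV cells and 11 with TGFb1, while the calls over all genes were 2071, against 5641 in the separate fit, 1629, against 5095, and 4865, against 1645. For the named members this ended 10 calls in Wisp1 cells, among them mt-Nd1 (0.41, adjusted p = 0.091), mt-Atp6 (0.43, adjusted p = 0.0997) and Ndufaf4 (-0.53, adjusted p = 0.0717), and 12 in EV cells, among them Ndufb7 (0.31, adjusted p = 0.424), while Cox6c lost its call in both (0.23 in each, adjusted p = 0.0612 and 0.0685); the cause was not tested. Without a filter on low counts mt-Nd1 (adjusted p = 0.0777), mt-Atp6 (0.0672) and Ndufv3 (0.0538) lost their calls in Wisp1 cells, Ndufaf4 (0.11) and Ndufb4 (0.0721) in EV cells and Ndufb11 (0.0772) in the parental comparison, where Ndufs1 was called with DESeq2 size factors (0.042), no filter (0.0414), DESeq2 (0.0225) and all 18 libraries (0.0209).

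For TGFb1, DESeq2 called 4 nuclear members and 2910 genes. With the replicate block, 24 nuclear members, 2 mitochondrial rows and 6672 genes were called, and leaving out each library gave 380 to 1430 genes. With the replicate block within each substrate, Wisp1 against EV cells had 2 mitochondrial rows, 2 nuclear members and 440 genes called on plastic, against 2 genes without it. On collagen it had 1 mitochondrial row, 2 nuclear members and 358 genes, against 10, and the difference between substrates 1 nuclear member and 70 genes, against 0. The replicate block over all 4 groups called 18 genes on collagen and, of the named calls on collagen against plastic, ended that of mt-Nd3 in EV cells alone (0.19, adjusted p = 0.0535). With collagen and plastic permuted within each line, which treats the paired cultures as independent, the exact permutation p of the ratios was 0.005 for mt-Nd6 and 0.015 for mt-Rnr2. The smallest p that the 400 arrangements can give is 0.005. Both ratios were picked with their values known, over mt-Nd5 and mt-Nd1, which were called higher. These p therefore describe the separation and are no independent test, and no adjustment covers the other pairs that could have been picked. The block within each substrate gives no value for collagen against plastic, since the blocks lie within a substrate. Over all genes, Wisp1 against EV cells gave 18 calls with DESeq2, 1 with the stricter filter and 1 with all 18 libraries on plastic, and 40, 6 and 4 on collagen, where no filter gave 32. DESeq2 called 1 gene in the difference between substrates. Protein-coding rows alone took 0.578% of counts in Wisp1 and 0.560% in EV cells on plastic, against 0.599% and 0.579% for all mitochondrial rows.

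Counts are relative within a library, poly(A) selection captures mitochondrial ribosomal RNA and mt-Nd6 in part, and 3 cultures of 1 line per group measure neither clone nor animal variation. Low rows such as mt-Tp rest on few counts.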
